A study of Mus musculus with 28 samples.

Results

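Tcf7l2, Prkcd, Lef1, Calb2, Rora and Zic1, 6 genes used as markers of thalamic neurons, were followed through RNA sequencing libraries of the CA1 field of the mouse hippocampus. The 6 genes were taken as listed markers by symbol, and each was found by its Ensembl identifier among the 48709 genes counted. All 6 were among the 17009 genes that had enough counts to be tested. The thalamus is the tissue that lies below the hippocampus, so its markers were read as a sign of how much neighbouring tissue each dissected sample might hold.

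The libraries fell into 3 groups, 9 from transgenic mice given vorinostat, 9 from transgenic mice given vehicle and 10 from wildtype littermates given vehicle. The transgene is CamkdeltaC, a splice form of a calcium and calmodulin dependent protein kinase, and vorinostat is an inhibitor of histone deacetylases. Both agents were given in drinking water for 4 weeks from 2 months of age, and tissue was taken at 3 months from mice of both sexes. Not given in the sources used here were the promoter that drives the transgene, the sex of each mouse and whether any sample pooled animals, and mice of this transgene are known as a heart failure model in which heart muscle makes the kinase. No wildtype libraries with vorinostat were analysed here, and a difference between the vorinostat libraries and the wildtype libraries carries both the transgene and the drug. Nothing in the labels ties each library to a mouse of its own, and p-values therefore cover only the variation among libraries, some of which may be technical.

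The thalamus relays sensory and motor signals to the cortex, and most of its neurons are excitatory cells that use the vesicular glutamate transporter Slc17a6. During development the Wnt pathway acts through transcription factors of the TCF/LEF family, and in the thalamus and habenula this programme is kept into adult life, with Tcf7l2 as its leading factor. In the hippocampus itself some of the same genes are made by other cells: calretinin, the product of Calb2, marks a class of interneurons, mossy cells of the mouse dentate hilus and Cajal-Retzius cells, and Lef1 is active in endothelial cells of brain vessels.

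Library totals ran from 20230085 to 33191857 counts, and 0 library pairs within a group were identical. In 4 libraries, vorinostat 6, 7 and 9 and wildtype vehicle 2, mitochondrially encoded genes held 6.39% to 7.48% of counts, against 2.84% to 4.11% in the other 24, so values that rest on these 4 are also given without them. Levels are in CPM, counts divided by a library total that edgeR's TMM factors had scaled, and a level per length divides this by the kilobases of a gene's exons. In bulk tissue, fewer cells of a type and less RNA per cell cannot be told apart.

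CA1 pyramidal genes were abundant, as the tissue label says, while genes that define thalamic nuclei were absent or nearly so. Mpped1, Wfs1 and Fibcd1, which mark CA1 pyramidal cells, averaged 108, 75.4 and 56.7 CPM per kb over the 28 libraries. Gbx2, a homeobox gene of thalamic relay nuclei, had 19 counts over all libraries together and was seen in 13 of 28. Shox2, another homeobox gene of thalamic neurons, had 16 counts in 12 libraries. Sox14, a marker of inhibitory thalamic neurons, had 0 counts, which with 3 counts as the limit allows up to 0.0044 CPM over all libraries, for counting error only. Pou4f1, which defines the habenula beside the thalamus, had 18 counts in 12 libraries. These 4 genes had too few counts to be tested.

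Other genes found in thalamic neurons were not rare. Slc17a6 averaged 9.04 CPM per kb, and Ntng1, an axon guidance molecule of thalamic axons, averaged 8.02 CPM per kb. Adarb1, an RNA editing enzyme, was the highest of the 18 other thalamic genes per length at 17.0 CPM per kb, followed by the transcription factor Lhx2 at 12 CPM per kb. The 18 genes summed to 449 to 559 CPM in vorinostat libraries (median 514), 470 to 611 CPM in transgenic vehicle libraries (median 508) and 469 to 565 CPM in wildtype libraries (median 502), so the 3 ranges overlapped. Over the 28 libraries the largest means in this sum were 192 CPM for Adarb1, 66.1 for Ntng1, 52.7 for Lhx2, 48.8 for Slc17a6 and 40.3 for Plekhg1. How much of the sum came from thalamic cells was not tested. The 6 genes are called by their names below, and the part of thalamic tissue in their values was not tested.

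**Figure D1:**
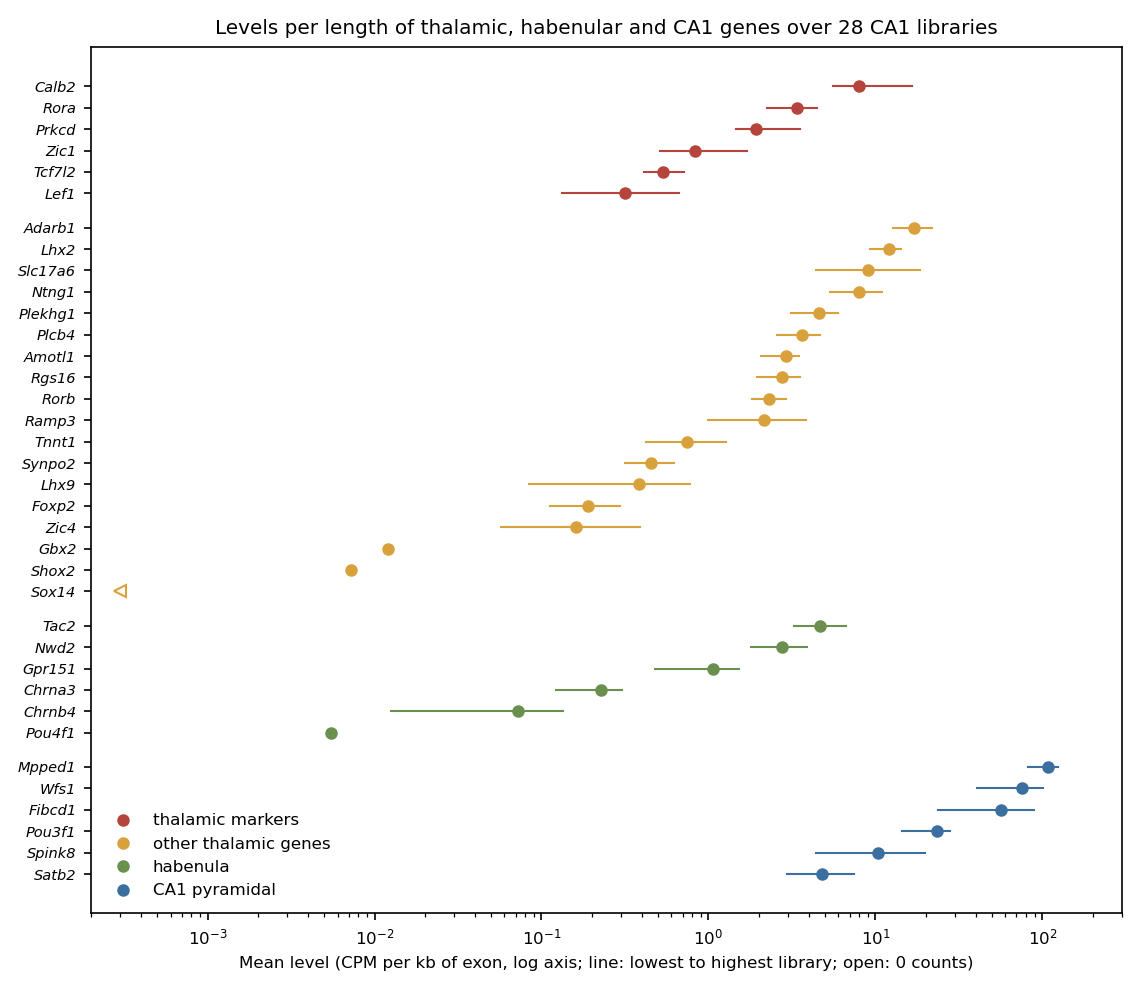
Mean level per length (CPM per kb of exon, log axis) over all 28 libraries of the 6 thalamic markers, the other thalamic genes, the habenular genes and the CA1 pyramidal genes, with a line from the lowest to the highest library where no library was at 0. The 6 markers lie between 0.315 CPM per kb for Lef1 and 7.99 CPM per kb for Calb2, Gbx2, Shox2 and Pou4f1 lie near 0.01 CPM per kb or below, and Sox14 is drawn open at the left edge because it had 0 counts.

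Per length, the 6 genes formed a ladder. Calb2 was highest at 7.99 CPM per kb over the 28 libraries, Rora followed at 3.37, Prkcd at 1.92, Zic1 at 0.834, Tcf7l2 at 0.536 and Lef1 at 0.315. Calb2 was above Rora in 28 of 28 libraries, and their ranges over libraries did not overlap. Every other neighbouring pair had overlapping ranges, although the order within a library held for Rora over Prkcd in 26 of 28, for Prkcd over Zic1 in 28, for Zic1 over Tcf7l2 in 27 and for Tcf7l2 over Lef1 in 28. Spread within a group also differed between the genes: the coefficient of variation in wildtype libraries was 16.5% for Tcf7l2 and 18% for Rora, against 42.5% for Lef1 and 41.3% for Calb2.

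Tcf7l2 encodes the TCF/LEF factor that mediates Wnt signalling in thalamic neurons, and it is also made by oligodendrocytes as they mature. The gene (ENSMUSG00000024985) lies on chr19:55741820-55933654, plus strand, of GRCm38. Its level had a lowest, median and highest value of 3.61, 4.56 and 5.43 CPM in vorinostat libraries, 3.98, 4.61 and 5.73 CPM in transgenic vehicle libraries and 3.77, 4.71 and 6.25 CPM in wildtype libraries. The ranges of the 3 groups overlapped, 3 of 9 vorinostat libraries were below every transgenic vehicle library, and the highest library was wildtype vehicle 1.

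Lef1 encodes the related factor that shares its DNA-binding domain type with Tcf7l2. It lies on chr3:131110471-131224356, plus strand (ENSMUSG00000027985), and an antisense gene, Gm43352, overlaps its exons; the library kit keeps no strand, so reads of the pair cannot be told apart. Lef1 levels had a lowest, median and highest value of 1.36, 2.6 and 3.96 CPM in vorinostat libraries, 2.44, 2.70 and 3.10 CPM in transgenic vehicle libraries and 1.17, 3.06 and 5.87 CPM in wildtype libraries. The transgenic vehicle libraries sat inside the ranges of both other groups, 4 of 10 wildtype libraries were above all of them, and the coefficient of variation was 32.5% in vorinostat libraries and 7.99% in transgenic vehicle libraries. Of the 4 libraries with a high mitochondrial share, vorinostat 7 and wildtype vehicle 2 gave the lowest Lef1 values of their groups, 1.36 and 1.17 CPM, while vorinostat 6 was at 2.63 CPM.

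Zic1 encodes a zinc finger transcription factor of thalamic neurons, cerebellar granule cells and the meninges. It lies on chr9:91358058-91365810, minus strand (ENSMUSG00000032368), and its exons overlap those of its neighbour Zic4 on the other strand, so their counts are not fully separate. Zic1 levels had a lowest, median and highest value of 2.94, 3.77 and 9.70 CPM in vorinostat libraries, 3.10, 4.89 and 6.92 CPM in transgenic vehicle libraries and 3.2, 4.68 and 7.12 CPM in wildtype libraries. A single vorinostat library, replicate 5, stood above all others at 9.70 CPM, with the next vorinostat library at 5.5 CPM.

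Rora encodes a nuclear receptor that acts in thalamic relay neurons and cerebellar Purkinje cells. It lies on chr9:68653786-69388246, plus strand (ENSMUSG00000032238), and the antisense gene Gm15511 overlaps its exons. Rora levels had a lowest, median and highest value of 37.1, 45.1 and 53.5 CPM in vorinostat libraries, 31.4, 41.6 and 58.5 CPM in transgenic vehicle libraries and 29.4, 45.5 and 51.6 CPM in wildtype libraries. The highest library was in the transgenic vehicle group and the lowest in the wildtype group, and the ranges of the 3 groups overlapped.

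Calb2 encodes calretinin, a calcium-binding protein of midline thalamic neurons and, in the hippocampus, of the cells named above. It lies on chr8:110137502-110168210, minus strand (ENSMUSG00000003657). Calb2 levels had a lowest, median and highest value of 9.74, 13.1 and 16.5 CPM in vorinostat libraries, 10.1, 11.7 and 16.3 CPM in transgenic vehicle libraries and 9.66, 13.5 and 28.9 CPM in wildtype libraries. The upper end of the wildtype range came from replicates 4 and 1, at 28.9 and 26.4 CPM, while the third highest wildtype library was at 17.5 CPM. These 3 of 10 wildtype libraries were above every vorinostat and every transgenic vehicle library.

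Prkcd encodes protein kinase C delta, a diacylglycerol-activated kinase abundant in thalamic relay neurons and in the central amygdala. It lies on chr14:30595354-30626210, minus strand (ENSMUSG00000021948). Prkcd levels had a lowest, median and highest value of 8.05, 9.08 and 11.2 CPM in vorinostat libraries, 9.07, 10 and 13.5 CPM in transgenic vehicle libraries and 9.37, 11.1 and 19.4 CPM in wildtype libraries. The ranges overlapped, but 6 of 9 vorinostat libraries were below every wildtype library, and 4 of 10 wildtype libraries were above every vorinostat library.

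**Figure D2:**
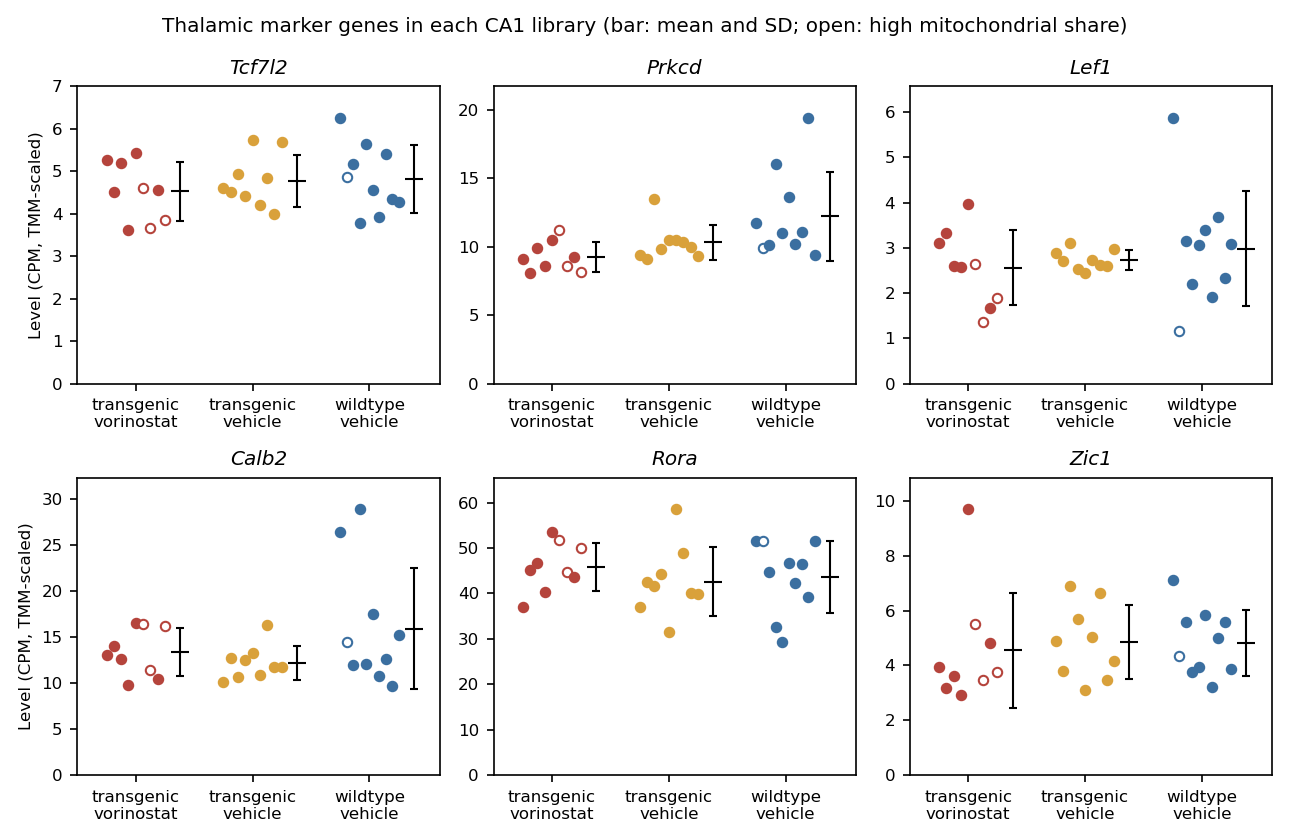
Level (TMM-scaled CPM) of each of the 6 genes in every library, in the order vorinostat, transgenic vehicle and wildtype vehicle, with the mean and SD of each group as a black bar and the 4 libraries of high mitochondrial share drawn open. Prkcd values of vorinostat libraries lie between 8.05 and 11.2 CPM, 6 of 9 of them below the wildtype range of 9.37 to 19.4 CPM, and for each of the 6 genes the ranges of the 3 groups overlap.

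Vorinostat libraries against wildtype libraries gave the largest difference of any member, in Prkcd. It averaged 9.25 ± 1.07 CPM in vorinostat libraries (SD, n = 9) and 12.2 ± 3.22 CPM in wildtype libraries (SD, n = 10), a fitted log2 fold change of -0.40 with a standard error of 0.11 and a 95% interval of -0.63 to -0.18. By edgeR's quasi-likelihood test its unadjusted p was 0.000983, which placed it 23rd of 17009 genes, and its p adjusted by Benjamini and Hochberg over all genes was 0.384, so it did not pass the threshold of 0.05. A two-sided exact permutation test of the mean log2 CPM gave p = 0.00325, 1 of 18 such tests over the members and contrasts, with 8 of 9 vorinostat libraries below the wildtype median. Without the 4 libraries of high mitochondrial share the log2 fold change was -0.44, and leaving out single libraries moved it between -0.44 and -0.31, the smallest size being without wildtype vehicle 9.

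The other 5 members had 95% intervals that held 0 in this contrast. Calb2 had a log2 fold change of -0.25 (standard error 0.164, interval -0.58 to 0.08), which was -0.12 without wildtype vehicle 4. Lef1 stood at -0.21 (interval -0.61 to 0.18), Tcf7l2 at -0.09 (interval -0.30 to 0.11), Zic1 at -0.08 (interval -0.48 to 0.31) and Rora at 0.07 (interval -0.13 to 0.28). Zic1 was -0.32 without vorinostat 5, the library that stood apart. Thus 0 of the 6 members were called at an adjusted p under 0.05, where the background over all genes was 0%. At an unadjusted p under 0.05 the count was 1 of 6, where 12.6% of all genes passed.

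In transgenic vehicle libraries, Calb2 and Prkcd had lower fitted levels than in wildtype libraries, without passing the test over all genes. Calb2 averaged 12.2 ± 1.83 CPM in transgenic vehicle libraries (SD, n = 9) and 15.9 ± 6.58 CPM in wildtype libraries (SD, n = 10), a log2 fold change of -0.38 with a standard error of 0.164 and an interval of -0.72 to -0.05. Its unadjusted p from edgeR was 0.0272 and its adjusted p 1, and the two-sided exact permutation test gave p = 0.127. The value was -0.25 without wildtype vehicle 4 and -0.27 without wildtype vehicle 1. Prkcd averaged 10.3 ± 1.30 CPM in transgenic vehicle libraries (SD, n = 9), a log2 fold change of -0.25 with a standard error of 0.11 and an interval of -0.48 to -0.03 against wildtype. Its unadjusted p was 0.0288 and its adjusted p 1 by edgeR, with an exact permutation p of 0.0897, and the value was -0.15 without wildtype vehicle 9.

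Lef1 stood at -0.13 in the same contrast (interval -0.53 to 0.26), Rora at -0.03, Tcf7l2 at -0.02 and Zic1 at 0.01. Zic1 had an interval of -0.38 to 0.40, so differences of either sign up to about that size lay within it. Of the 6 members 0 were called (background 0%), and 2 had an unadjusted p under 0.05, where 1.33% of all genes did.

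Within transgenic mice, the values of vorinostat libraries lay close to those of vehicle libraries for all 6 genes. The log2 fold changes against transgenic vehicle ran from -0.15 for Prkcd (interval -0.38 to 0.08) to 0.13 for Calb2 (interval -0.21 to 0.48), with Rora at 0.11, Zic1 at -0.09, Lef1 at -0.08 and Tcf7l2 at -0.08. The count of members called was 0 (background 0%), and 0 of 6 had an unadjusted p under 0.05, where 14.4% of all genes did. Prkcd was lower than the transgenic vehicle median in 7 of 9 vorinostat libraries, with an exact permutation p of 0.0653. Zic1 was -0.32 without vorinostat 5, and Lef1 was 0.07 without the 4 libraries of high mitochondrial share. These intervals do not show that the groups are alike.

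Over all 3 groups at once, Prkcd had the lowest p of the members, at 0.00328 unadjusted and 0.535 adjusted by edgeR's quasi-likelihood test. Calb2 followed at 0.0735, and the other 4 lay between 0.543 and 0.877. The count called was 0 of 6 (background 0%), and 1 of 6 had an unadjusted p under 0.05, where 8.84% of all genes did. Across all genes, edgeR called 0 in each of the 3 contrasts. At an unadjusted p under 0.05 it listed 2141 genes between vorinostat and wildtype libraries, 2449 between vorinostat and transgenic vehicle libraries, and 227 between transgenic vehicle and wildtype libraries. DESeq2 called 0, 1 and 0 genes in the same order, limma voom called 0 in each, and both called 0 members.

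**Figure D3:**
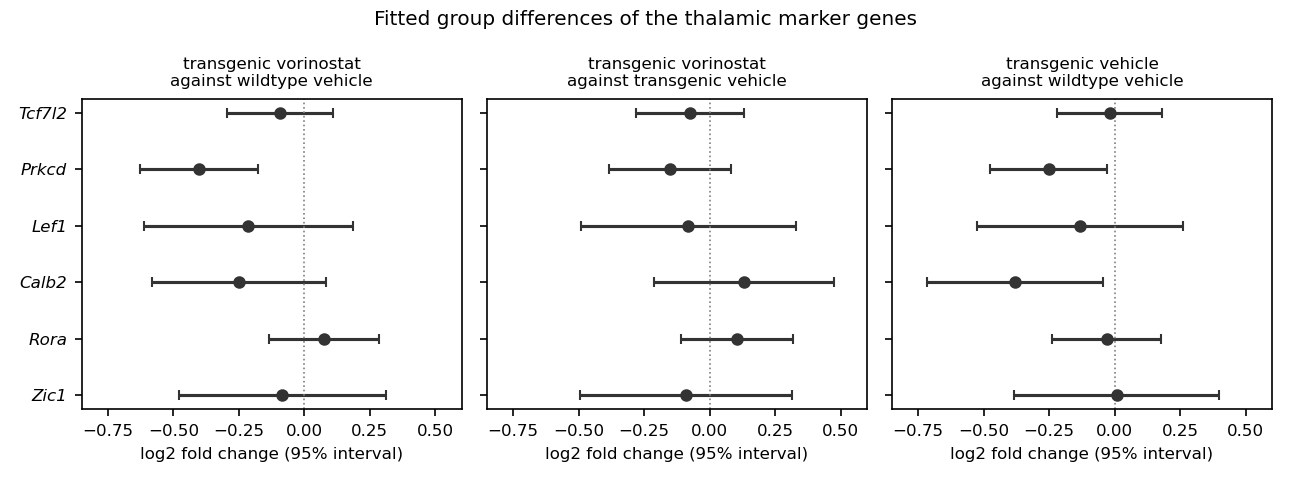
Fitted log2 fold change of each of the 6 genes (x axis) with its 95% interval in 3 contrasts, each labelled with its own groups. Prkcd at -0.40 in vorinostat against wildtype, and Prkcd at -0.25 and Calb2 at -0.38 in transgenic vehicle against wildtype, have intervals that leave out 0, and the other 15 intervals hold 0.

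As a list, the members leaned low in the contrasts against wildtype. Their median log2 fold change was -0.15 in vorinostat against wildtype, with 1 higher and 5 lower, and -0.08 in transgenic vehicle against wildtype, also with 1 higher and 5 lower, while over all genes 48.3% and 49.9% were lower. In vorinostat against transgenic vehicle 2 were higher and 4 lower, with a median of -0.08, where 49.1% of all genes were lower. Without the 4 libraries of high mitochondrial share, 3 were higher and 3 lower in that contrast, with a median of 0.03. The 15 other thalamic genes tested are given beside this, and the difference between the lists was not tested. They had a median of 0.06 in vorinostat against wildtype, with 8 higher and 7 lower, and 0.05 in transgenic vehicle against wildtype, with 11 higher and 4 lower. In vorinostat against transgenic vehicle 6 were higher and 9 lower, with a median of -0.03, and 0 passed the test in any contrast. Both contrasts against wildtype share the wildtype libraries. Slc17a6 stood at 0.20 in each of these (unadjusted p 0.401 and 0.383 by edgeR), Lhx9, a transcription factor of thalamic neurons, at -0.42 and -0.37, and Lhx2 at -0.18 and -0.06.

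The genes listed beside Tcf7l2 and Lef1 for the Wnt pathway, with the channel gene Cacna1g among them, were also tested. Of these 19 listed genes 18 had enough counts, and 0 passed in any contrast. In vorinostat against wildtype 2 were higher and 16 lower, with a median of -0.09, and in transgenic vehicle against wildtype 9 were higher and 9 lower, with a median of 0.01. In vorinostat against transgenic vehicle 6 were higher and 12 lower, with a median of -0.08. The direction changed without the 4 libraries of high mitochondrial share: 9 were higher and 9 lower in vorinostat against wildtype, with a median of 0.01, and 13 were higher and 5 lower in vorinostat against transgenic vehicle, with a median of 0.06. In transgenic vehicle against wildtype 6 were then higher and 12 lower, with a median of -0.03. Lgr5, a receptor that strengthens Wnt signals, stood at -0.25 in vorinostat against wildtype and -0.23 in transgenic vehicle against wildtype, Axin2, a feedback inhibitor and common Wnt target, at -0.17 in vorinostat against transgenic vehicle, and Ctnnb1, which encodes beta-catenin, was the highest of the list per length at 90.0 CPM per kb. Cacna1g, a T-type calcium channel gene of relay neurons that is counted in these tallies, averaged 16.5 CPM per kb.

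Close relatives of the members were at least as abundant as the members in several families. The protein kinase C gene Prkcb averaged 71.3 CPM per kb, against 1.92 for Prkcd, and Calb1, the calbindin gene, averaged 21.9 CPM per kb, against 7.99 for Calb2. Tcf7l1 and Tcf7, the other 2 members of the TCF/LEF family, averaged 0.973 and 0.859 CPM per kb, above Tcf7l2 at 0.536 and Lef1 at 0.315. Of the 19 relatives 0 passed in any contrast. Scgn, a calcium-binding relative of Calb2, had the largest value, -1.25 in vorinostat against transgenic vehicle (standard error 0.415, unadjusted p 0.00514, adjusted p 0.345 by edgeR), at a mean level of only 0.428 CPM.

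To see whether the 6 genes moved together between libraries, as markers of 1 piece of neighbouring tissue, the 15 pairs were correlated over the 28 libraries after group means were removed. The closest pair was Tcf7l2 and Lef1, with Pearson's r = 0.546 (permutation p = 0.00627, adjusted over 15 pairs 0.0587) and Spearman's rho = 0.586 (permutation p = 0.00265, adjusted 0.0397). Their r was 0.435 without the 2 libraries farthest from the Tcf7l2 median, 0.604 without the 4 libraries of high mitochondrial share, and 0.656, 0.152 and 0.590 within vorinostat, transgenic vehicle and wildtype libraries. Rora and Zic1 followed, with r = 0.481 (permutation p = 0.00783, adjusted 0.0587) and rho = 0.517 (permutation p = 0.00679), and with r = 0.617, 0.552 and 0.400 within the same 3 groups. By Pearson's r, 0 of the 15 pairs passed an adjusted p under 0.05, and by Spearman's rho 1 did.

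Prkcd, the member that differed most between groups, had low r with Tcf7l2 (-0.013), Rora (-0.16) and Lef1 (0.0964). Its closest member was Zic1, with r = 0.409 (permutation p = 0.0204, adjusted 0.0976). Zic1 had r between 0.253 and 0.481 with every other member, while Tcf7l2 and Rora, both genes of relay neurons, stood at r = -0.0279. Among all 17002 genes ranked by likeness to Prkcd, Zic1 took place 186, Calb2 place 3772, Lef1 place 5255, Tcf7l2 place 8852 and Rora place 13517. Ranked by likeness to Tcf7l2, Lef1 took place 240, and the nearest place any member took in the ranking of another was 186, for Zic1 beside Prkcd.

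**Figure D4:**
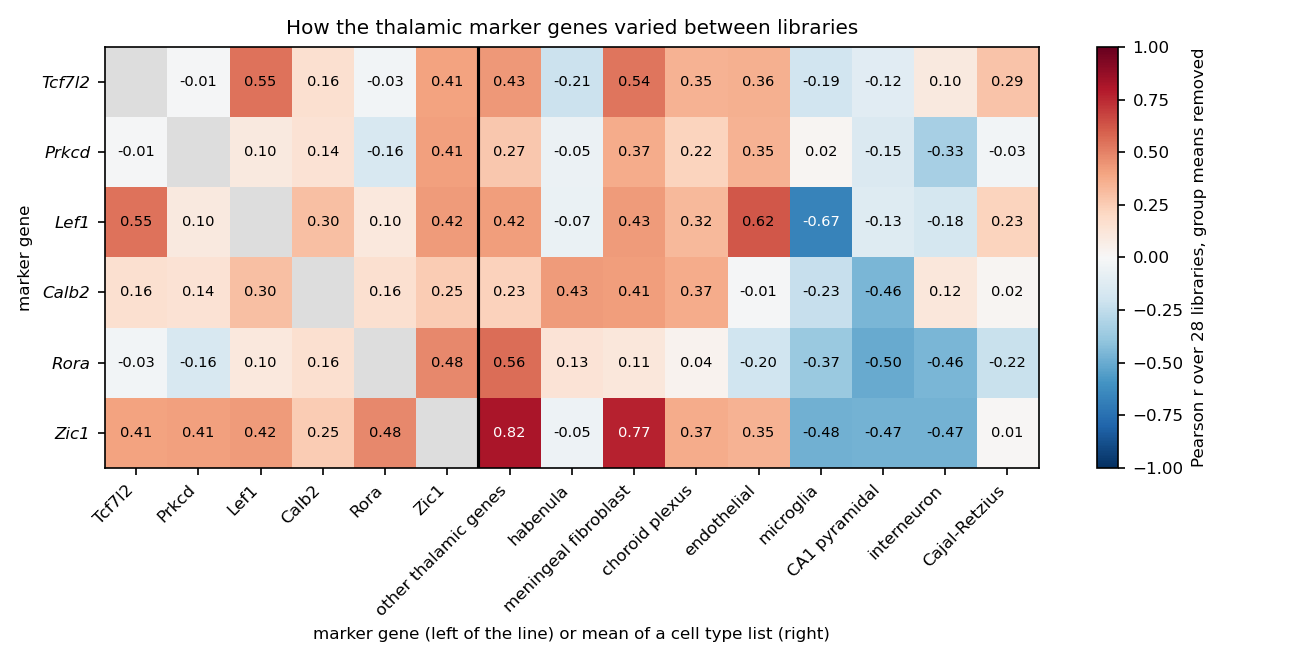
Pearson's r over 28 libraries, group means removed, of each of the 6 genes with the other 5 (left of the line) and with the mean log2 level of 9 marker lists (right of the line), drawn from blue at -1 to red at 1. The 15 pairs of members run from -0.16 to 0.546, Zic1 is darkest with the other thalamic genes (0.817) and the meningeal fibroblast list (0.766), and Rora stands at 0.555 with the other thalamic genes and -0.504 with the CA1 pyramidal list.

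Each gene had its own set of closest companions, given here as a description over 28 libraries that share tissue, depth and composition. Zic1 varied most like Slc13a4, a sulfate transporter of the meninges and choroid plexus (r = 0.89), Aebp1, an extracellular matrix gene (r = 0.861), its neighbour Zic4 (r = 0.854), Colec12, a scavenger receptor (r = 0.827), and Hcar1, the lactate receptor (r = 0.824). The 95th percentile of r with Zic1 over all genes was 0.443. In vorinostat 5, where Zic1 was at 9.70 CPM, Slc13a4 was at 21.7 CPM, Aebp1 at 31.9 CPM and Zic4 at 4.00 CPM, the highest values of the 28 libraries, and the choroid plexus list summed to 108 CPM, also the highest. The r of that list with Zic1 was 0.37 over all libraries and 0.0649 without the 2 libraries farthest from the Zic1 median. The r with Slc13a4 was 0.815 without the same pair.

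Beside this, the 7 meningeal fibroblast genes had r with Zic1 of -0.0105 for Dcn, 0.051 for Lum, 0.541 for Ogn, 0.58 for Col1a1, 0.766 for Col3a1, 0.768 for Col1a2 and 0.816 for Igf2, a growth factor of the meninges and choroid plexus. The list summed to 100 to 197 CPM in vorinostat libraries, 87.9 to 201 CPM in transgenic vehicle libraries and 96.2 to 165 CPM in wildtype libraries, so the groups overlapped. Over the 28 libraries the largest means in this sum were 88.3 CPM for Dcn and 31.9 CPM for Igf2. The mean log2 level of the list, in which each gene counts alike, had r = 0.766 with Zic1 (0.769 without the 4 libraries of high mitochondrial share, 0.642 without the 2 libraries farthest from the Zic1 median). The other thalamic genes had r = 0.817 with Zic1, 0.738 without the same 2 libraries, and 0.67 once Zic4 was left out of that list. With the meningeal level as a covariate, an alternative added after the data were seen, Zic1 stood at -0.19 in transgenic vehicle against wildtype, and the part of these cells in the Zic1 values was not tested further.

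The start sites of Zic1 and Zic4 in RefSeq lie 3204 bp apart and point away from each other, and the 250 bases before each are shown because these neighbours varied together. This Zic4 start lies 6559 bp from the 5′ end of the gene in GENCODE M21. There the exons of Zic4 overlap those of Zic1, so the counts behind their r are not fully separate. Both sequences are from RefSeq on GRCm38.p6, written 5′ to 3′ on the gene's strand, and no motif is marked in them. The Zic1 bases are chr9:91365769-91366018 on the minus strand and the Zic4 bases are chr9:91368722-91368971 on the plus strand.
Zic1: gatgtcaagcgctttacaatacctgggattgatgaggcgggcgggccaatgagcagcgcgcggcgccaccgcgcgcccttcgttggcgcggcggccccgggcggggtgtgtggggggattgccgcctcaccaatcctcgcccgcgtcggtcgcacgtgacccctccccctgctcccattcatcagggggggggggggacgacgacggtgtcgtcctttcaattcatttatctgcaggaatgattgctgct
Zic4: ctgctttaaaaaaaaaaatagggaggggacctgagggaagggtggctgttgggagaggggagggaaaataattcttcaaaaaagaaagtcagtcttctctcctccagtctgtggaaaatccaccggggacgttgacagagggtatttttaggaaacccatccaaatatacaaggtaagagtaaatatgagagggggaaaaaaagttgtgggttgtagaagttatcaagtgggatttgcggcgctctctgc

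Rora had the highest likeness of any member to other genes. Cacnb4, a calcium channel subunit, reached r = 0.945, Mef2c, a transcription factor of excitatory neurons, 0.917, Ptprd, a synaptic adhesion phosphatase, 0.911, Dlg1, a synaptic scaffold, 0.91, and Pgap1, an enzyme of membrane anchor processing, 0.905, where the 95th percentile over all genes was 0.582. All 5 are made widely in forebrain neurons. Of the other thalamic genes, Slc17a6 had r = 0.818 with Rora, Plcb4, a phospholipase, 0.743 and Foxp2, a transcription factor, 0.713, while Lhx9 stood at -0.544 and Ntng1 at -0.213. Rora was at 58.5 CPM in transgenic vehicle 6, its highest library, where Slc17a6 was also at its highest, 99.8 CPM. Rora was at 29.4 CPM in wildtype vehicle 5, its lowest library, where Slc17a6 was at 29.6 CPM.

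Of genes that mark striatal neurons, Drd1, a dopamine receptor, had r = 0.629 with Rora, while Ppp1r1b and Penk stood at -0.613 and -0.517. Rora had r = -0.504 with the mean of the CA1 pyramidal genes, and Zic1 had r = -0.469. The part of other tissue in these values was not tested.

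**Figure D5:**
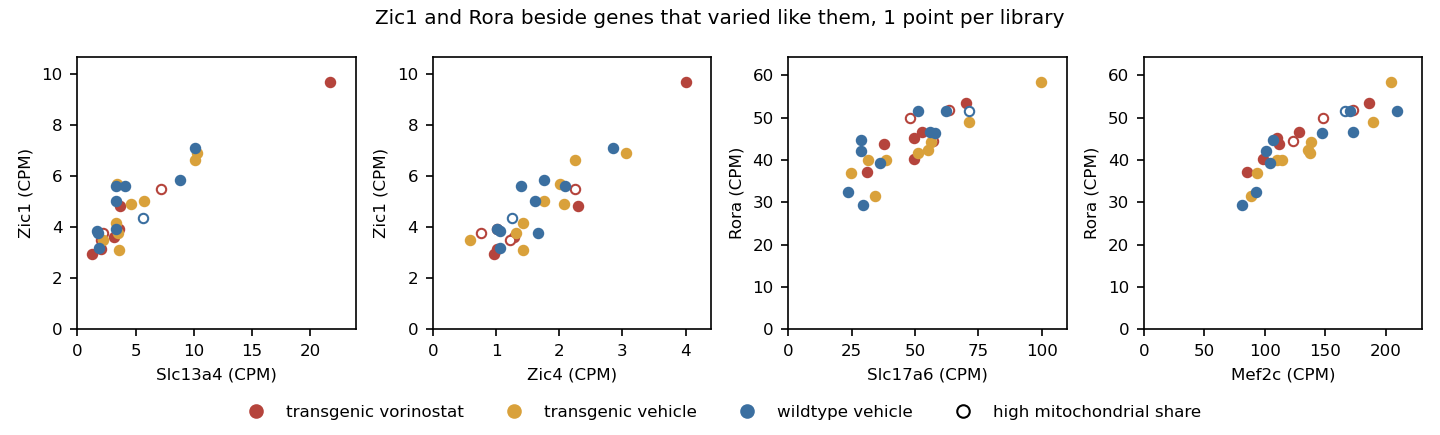
Zic1 against Slc13a4 and Zic4, and Rora against Slc17a6 and Mef2c, in TMM-scaled CPM on linear axes from 0, with 1 point per library coloured by group and open points for the 4 libraries of high mitochondrial share. Zic1 is higher in libraries with more of either partner, up to vorinostat 5 at 9.70 CPM, and Rora spans 29.4 to 58.5 CPM with Slc17a6 between 23.7 and 99.8 CPM.

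The closest companions of Lef1 were Obsl1, a cytoskeletal adaptor, and Cdk18, a cyclin-dependent kinase (r = 0.804 each), followed by AU022754 (0.80), Gtf2ird1, a transcription factor (0.799), and Plppr3, a neuronal membrane protein (0.795), and these were 0.69 to 0.765 without the 4 libraries of high mitochondrial share. Lef1 had r = 0.624 with the endothelial list, 0.315 without those 4 libraries and 0.396 without the 2 libraries farthest from the Lef1 median. The genes of that list were split. Cdh5 had r = 0.71 with Lef1, Flt1 and Cldn5 0.63 each and Pecam1 0.451. Ly6c1 stood at -0.0576, Slco1a4 at -0.193 and Itm2a at -0.246. The Wnt pathway list had r = 0.632 with Lef1, and 0.29 without the same 4 libraries. Lef1 had r = -0.667 with the microglial list and -0.543 with the mitochondrial share of counts. The endothelial list summed to 161 to 199 CPM in vorinostat libraries, 140 to 188 CPM in transgenic vehicle libraries and 116 to 191 CPM in wildtype libraries.

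Tcf7l2 was most like Tubb6, a tubulin (r = 0.776), Prr13 and Rad9a (0.741 each), Rhoj, a GTPase of endothelial cells (0.723), and Tmc6 (0.718). Its r with the other thalamic genes was 0.435 and with the meningeal fibroblast list 0.536. With the mature oligodendrocyte list it was 0.0888, and 0.251 without the 4 libraries of high mitochondrial share. With the new oligodendrocyte list it was 0.22, and 0.138 without them. Slc17a6 and Ntng1 had r of 0.038 and 0.0425 with Tcf7l2. Calb2 was most like Lrrc3b (0.662), Aplf (0.649), Nrg2, a neuregulin (0.644), Akain1 (0.632) and Hpcal1, a neuronal calcium sensor (0.623). Its r was 0.116 with the interneuron list, 0.262 with the mossy cell list, 0.0193 with the Cajal-Retzius list and 0.427 with the habenula list, of which Pou4f1 was near 0. Without the 2 libraries farthest from the Calb2 median, wildtype vehicle 4 and 1, the r with the mossy cell list was -0.0321.

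Prkcd had the weakest set of companions. 9430015G10Rik reached r = 0.657, 9430041J12Rik 0.648, Clmp, a cell adhesion gene, 0.605, Cd109, a membrane protein, 0.595, and an unnamed gene, ENSMUSG00000079537, 0.586. Without the 2 libraries farthest from the Prkcd median, the r with 9430015G10Rik was 0.724 and with ENSMUSG00000079537 0.519. In the same setting it was 0.456 with 9430041J12Rik, 0.331 with Clmp and 0.38 with Cd109. The lists closest to Prkcd were the relatives of the members (0.466) and the meningeal fibroblasts (0.373), and the other thalamic genes stood at 0.266. Without the 2 libraries farthest from the Prkcd median these values were 0.41 for the relatives, 0.551 for the meningeal fibroblasts and 0.494 for the other thalamic genes. Slc17a6 had r = -0.0195 with Prkcd and Ntng1 -0.138.

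Promoter windows of 300 bases, 250 before and 50 after a start site, were held for 10 start sites of 5 members, Calb2 not among them, in the RefSeq table of GRCm38.p6. The core that TCF/LEF factors bind, CTTTGA or TCAAAG on the other strand, was in 2 of these 10, and in 16.0% of all 32851 promoters. It lay 139 bases before the main Prkcd start and 180 and 120 bases before an internal Lef1 start, and 22 bases after the Zic4 start. The half-site of the RORA receptor, AGGTCA or TGACCT, was in 0 of the 10, and in 16.3% of all promoters. The 250 bases before the Prkcd start are shown because Prkcd differed most between groups, and those before the internal Lef1 start because they hold the core at 2 places, with capitals marking the core. They are chr14:30626209-30626458 on the minus strand and chr3:131156044-131156293 on the plus strand, from RefSeq on GRCm38.p6, and a match of letters is a description, not a binding site.
Prkcd: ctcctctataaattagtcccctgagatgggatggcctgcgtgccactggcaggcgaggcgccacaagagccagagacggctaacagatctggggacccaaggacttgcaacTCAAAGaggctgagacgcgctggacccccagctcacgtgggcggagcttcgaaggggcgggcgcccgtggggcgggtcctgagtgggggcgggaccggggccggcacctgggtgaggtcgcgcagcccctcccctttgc
Lef1: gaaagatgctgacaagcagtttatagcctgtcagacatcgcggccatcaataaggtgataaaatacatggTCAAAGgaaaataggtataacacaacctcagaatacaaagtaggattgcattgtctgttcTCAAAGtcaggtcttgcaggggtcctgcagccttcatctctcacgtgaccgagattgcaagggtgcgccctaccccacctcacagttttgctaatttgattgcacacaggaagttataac

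The authors also deposited adjusted expression values and a table of 14 coexpression modules, in which all 6 genes appear. In the authors' deposited module table the 6 genes were assigned to 4 modules: Tcf7l2 and Prkcd in darkred, Lef1 in cyan, Calb2 and Zic1 in blue, and Rora in lightcyan. Their membership scores in the assigned modules were 0.895 for Rora, 0.698 for Tcf7l2, 0.648 for Zic1, 0.404 for Lef1, 0.246 for Calb2 and 0.224 for Prkcd, and Zic4 (0.623) and Slc17a6 (0.946) were in blue with Zic1. Tcf7l2 (0.722), Prkcd (0.24) and Lef1 (0.405) had their highest score in another module, royalblue. Calb2, Rora and Zic1 scored highest in the module assigned to them. Group-centred values of the adjusted table had r of 0.604 for Zic1 to 0.846 for Prkcd with the log2 CPM of the same libraries.

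In the adjusted values, for which no source used here gives the log base, Prkcd averaged 4.49 ± 0.196 in vorinostat libraries (SD, n = 9) and 4.73 ± 0.238 in wildtype libraries (SD, n = 10), a difference of -0.24 in the table's own units. Zic1 averaged 0.639 ± 0.339 in vorinostat libraries (SD, n = 9), 0.74 ± 0.22 in transgenic vehicle libraries (SD, n = 9) and 0.452 ± 0.216 in wildtype libraries (SD, n = 10), so its difference from wildtype was positive there, 0.19 and 0.29, and near 0 in the counts. These differences were not tested. Over the 15 pairs, 2 passed an adjusted p under 0.05 in the adjusted values, Tcf7l2 with Lef1 (r = 0.617) and Lef1 with Calb2 (r = 0.615), each with an adjusted permutation p of 0.0187.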

How the data were processed

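For each of 28 libraries the authors deposited raw counts per gene, made with a TruSeq RNA v2 kit and 50 bp single-end reads, per the labels. The submitters' processing notes name STAR 2.5.2b, featureCounts from Subread 1.5.1, FastQC 0.11.5 and mm10 (GRCm38). The sources used here do not give the annotation release, the strand setting or the handling of reads shared by genes. A deposited table of adjusted expression, read here as log2 values, and a deposited table of module membership scores, with p-values, were also used. How the authors adjusted the values is not stated.

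Symbols came from GENCODE M21 and matched 99.3% of identifiers. The test was the quasi-likelihood F-test in edgeR 4.0.16 (R 4.3.3, TMM, robust, 1 fit over 28 libraries with group as the only term), after edgeR's low-count filter (minimum count 10, minimum total 15), with Benjamini-Hochberg adjustment over 17009 genes and a threshold of 0.05. Standard errors of log2 fold changes had medians over all genes of 0.0862 to 0.0885. Correlations used log2 CPM with a prior count of 2, group means removed, and 100000 permutations within groups, and likeness ranked 17002 genes. DESeq2 1.42.0, limma 3.58.1 (voom), other scalings, filters, covariates and left-out libraries were alternatives. The scripts were tested on simulated data.

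The members and the marker lists were chosen with earlier results of these data known, so no p was adjusted over a list alone. Named genes were the members, the 5 genes most like each, and, in the lists used, the largest differences, the highest levels per length and defining genes near 0; single list genes named beside a member's correlation were chosen after their values were seen.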

Additional observations from a re-analysis of the deposited data

Results flagged for a closer look

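In 18 groups of libraries, 1 for each member and group, the highest and lowest library were compared with their nearest neighbour by Dixon's gap test at the 95% level, and chance alone flags about 1 in 20 groups. In 3 of the 18 a library stood apart. Zic1 was at 9.70 CPM in vorinostat 5, where the nearest vorinostat library was at 5.5 CPM, and Slc13a4, Aebp1 and Zic4 were also at their highest in that library. Prkcd was at 13.5 CPM in transgenic vehicle 3, where the nearest was at 10.5 CPM, and Zic1 was at 6.92 CPM there, its highest transgenic vehicle value. Lef1 was at 5.87 CPM in wildtype vehicle 1, where the nearest was at 3.67 CPM, and Tcf7l2 (6.25 CPM) and Zic1 (7.12 CPM) were at their wildtype highest in the same library.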

How the results depend on the processing

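Of the log2 fold changes of members under alternatives other than leaving out 1 library, 255 kept their direction and side of the threshold and 14 changed sign, none of them past the threshold. In transgenic vehicle against wildtype, Zic1 was -0.008 without the 4 libraries of high mitochondrial share, with the mitochondrial share as a covariate and with the replicate block, -0.094 with the choroid plexus level as a covariate, -0.19 with the meningeal level, -0.004 in limma voom and -0.003 as a difference of mean log2 CPM. In the same contrast Rora was 0.001 without the 4 libraries and with Xist as a covariate, Tcf7l2 was 0.001 with Xist and 0.03 with a block of the description numbers, and Lef1 was 0.007 with that block. In vorinostat against transgenic vehicle, Lef1 was 0.074 without the 4 libraries and 0.099 with the mitochondrial share as a covariate. The cause of these changes was not tested.

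Leaving out 1 library in turn moved values in transgenic vehicle against wildtype between -0.225 and 0.028 for Lef1, -0.1 and 0.015 for Rora, -0.058 and 0.029 for Tcf7l2 and -0.072 and 0.084 for Zic1. Genes called ranged from 0 to 3 in vorinostat against wildtype (3 without wildtype vehicle 2, 1 without wildtype vehicle 5) and 0 to 1 in vorinostat against transgenic vehicle (1 without vorinostat 3), and members called stayed at 0 in every setting run. DESeq2 called 1 gene in vorinostat against transgenic vehicle. The adjusted p of Prkcd in vorinostat against wildtype ranged from 0.152 to 0.929 over its alternatives. Of the pairs, 2 passed in the authors' adjusted values, Prkcd and Lef1 stood at r = -0.137 without the 4 libraries and -0.0471 in the adjusted values, and Lef1 and Rora at -0.0184 in the adjusted values.

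Replicate numbers in the titles did not pair the libraries: same-numbered libraries correlated at -0.34 to 0.408, with 3, 3 and 1 of 9 pairs over 0.1 in the 3 contrasts. With the replicate block 1 gene was called in vorinostat against wildtype, and Prkcd there was -0.427. At 26 to 136 counts per library, Lef1 carries the most counting error of the 6 genes.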
